A study of Mus musculus with 2 samples.

Results

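Kcnj10, Kcnj2, Kcnk13, Kcnk6 and Kcna3 encode the pore-forming subunits of 5 potassium channels known from microglia, macrophages or other glia. The 5 genes were found by symbol among the 32589 features of the deposited count matrices, and each symbol named 1 feature. They were chosen with the measured levels in view, so their own differences between libraries are given as a description and carry no test. The samples were microglia sorted as CD45low CD11b+ cells from the prefrontal cortex of C57BL/6 mice, and 1 library came from vehicle-treated and 1 from corticosterone-treated mice. Corticosterone, the main glucocorticoid of the mouse, was given by oral gavage as a model of depression linked to excess glucocorticoid. The dose, the duration, the C57BL/6 substrain and supplier of each group, the age and sex of the mice and the number pooled in each library are not given in the sources used here.

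Potassium channels let potassium leave a cell down its gradient and so hold the membrane potential negative. In microglia this potential governs the movement of the processes and the driving force for calcium entry, and potassium leaving the cell is a known trigger of the NLRP3 inflammasome, the complex that matures interleukin-1 beta. Inward rectifiers (Kcnj genes, Kir channels) pass little outward current at depolarised potentials. Kcnj10 encodes Kir4.1, best known as the potassium-buffering channel of astrocytes and oligodendrocytes, and Kcnj2 encodes Kir2.1, an inward rectifier recorded in cultured microglia. Tandem-pore channels (Kcnk genes) carry leak current: Kcnk13 encodes THIK-1, the main resting potassium conductance of microglia, and Kcnk6 encodes TWIK-2, described as a potassium efflux route upstream of NLRP3 in macrophages. Kcna3 encodes Kv1.3, a voltage-gated channel of activated microglia and of T cells.

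The feature that makes these 5 proteins potassium channels is the selectivity filter, a stretch of 5 codons in each pore loop. Inward rectifiers and Kv1.3 have 1 pore loop per subunit and tandem-pore channels have 2. The 45 bases around the filters of Kcnj2, Kcnk13, Kcnk6 and Kcna3 are printed from the GENCODE M21 transcripts (build GRCm38), 5′ to 3′ on the coding strand, with the 15 bases of the filter codons in capitals.
Kcnj2, chr11:111072192-111072236, plus strand, exon 2: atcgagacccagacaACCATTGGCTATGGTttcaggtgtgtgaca
Kcnk13, loop 1, chr12:99966259-99966280 and chr12:100061002-100061024, plus strand, exons 2 and 3: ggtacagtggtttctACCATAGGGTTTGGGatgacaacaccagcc
Kcnk13, loop 2, chr12:100061361-100061405, plus strand, exon 3: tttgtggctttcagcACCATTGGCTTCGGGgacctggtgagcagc
Kcnk6, loop 1, chr7:29232162-29232183 and chr7:29225845-29225867, minus strand, exons 1 and 2: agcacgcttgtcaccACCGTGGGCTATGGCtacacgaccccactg
Kcnk6, loop 2, chr7:29225521-29225565, minus strand, exon 2: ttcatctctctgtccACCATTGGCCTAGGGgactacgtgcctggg
Kcna3, chr3:107037596-107037640, plus strand, exon 1: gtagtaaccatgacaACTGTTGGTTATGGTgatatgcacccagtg

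In both tandem-pore genes the first filter was divided by an intron after 7 of its 15 bases, whereas the second lay within 1 exon. The second filters of Kcnk13 and Kcnk6 were identical at 13 of 15 bases and the first filters at 10. Identity did not sort the filters by family: Kcnj2 and Kcna3 shared 12 bases, and Kcna3 and the second filter of Kcnk6 shared 8. Kcna3 has 1 exon, and an annotated antisense gene, Gm27008, overlaps it on the other strand. Gm27008 is a separate feature of the count matrices. Whether the counting used strand is not given in the sources used here, so how reads from the overlap were assigned is not known. Kcnk13 is the longest of the 5 genes, at 98184 bases, against 32876 for Kcnj10, 10658 for Kcnj2, 10590 for Kcnk6 and 1902 for Kcna3.

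After filtering, 10500 cells of the vehicle library and 17883 of the corticosterone library were kept, with 49325067 and 85103539 UMIs (unique molecular identifiers, each standing for 1 captured RNA molecule) and medians of 3220.5 and 3961 UMIs per cell. The median mitochondrial share was 2.67% and 4.20%, and 104 barcodes were listed in both libraries. Clusters were named from marker genes, with all Kcn genes left out of the clustering. No microglia-like cluster had the 3 markers 2-fold above the other cells that named the other classes. They were named by a looser rule. It asked for at least 3 microglia markers detected in 10% of cells. The geometric mean of the markers also had to reach 0.5 of that over all cells. Microglia-like cells numbered 7967 in the vehicle library (75.9%) and 15284 in the corticosterone library (85.5%), and all 11 microglia markers were detected in both. Most vehicle microglia-like cells lay in cluster 1 (7228 cells) and most corticosterone ones in clusters 0 (9413 cells) and 2 (5134 cells), so clusters and libraries nearly coincided. With 1 library per group, no test between groups was possible: the treatment, the library and its sort cannot be told apart. Levels are UMIs summed over the cells of a class and scaled to counts per 1000000 UMIs of that class (CPM), and each range in parentheses is an exact 95% interval that covers counting error only.

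In microglia-like cells, Kcnj10 was the member that differed most between the libraries. The vehicle library held 99 UMIs, or 3.07 CPM (2.50 to 3.74), and the corticosterone library 2122, or 29.7 CPM (28.4 to 31.0). The corticosterone library was 9.66-fold higher, for a log2 ratio of 3.27 (2.98 to 3.58), and the intervals of the levels lay far apart. Among the 9677 genes with a mean of at least 5 CPM over both libraries, 13 had a higher ratio. The median log2 ratio of those genes was -0.01, and 90% of them lay between the 5th percentile of -0.67 and the 95th of 0.64.

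Kcnj2, the other inward rectifier, was at 39.7 CPM (37.5 to 41.9, 1279 UMIs) in the vehicle library against 53.5 CPM (51.8 to 55.2, 3822 UMIs) in the corticosterone one. Its log2 ratio was 0.43 (0.34 to 0.52), and 10.1% of genes had a higher one. The intervals of the 2 levels did not overlap, yet the ratio lay within the middle 90% of all genes, so it was not unusual beside the rest of the transcriptome.

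The tandem-pore genes differed in opposite directions. Kcnk13, whose THIK-1 channel sets the microglial resting potential, was at 78.5 CPM (75.5 to 81.6, 2529 UMIs) in the vehicle library against 91.1 CPM (88.9 to 93.3, 6511 UMIs) in the corticosterone one, for a log2 ratio of 0.21 (0.15 to 0.28). Kcnk6 was at 127 CPM (123 to 131, 4083 UMIs) and 96.8 CPM (94.5 to 99.1, 6918 UMIs), for a log2 ratio of -0.39 (-0.44 to -0.33). Kcnk13 was therefore higher and Kcnk6 lower in the corticosterone library, with no overlap of the counting intervals for either gene. Both ratios again lay inside the range of most genes: 23.2% of genes had a higher ratio than Kcnk13 and 13.1% a lower ratio than Kcnk6.

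Kcna3, the Kv1.3 gene, was nearly undetected. Its 11 UMIs in vehicle gave 0.341 CPM (0.170 to 0.611) and its 75 UMIs in corticosterone 1.05 CPM (0.825 to 1.32). The log2 ratio was 1.62 (0.70 to 2.68), higher in corticosterone, but it rests on 11 UMIs and the gene was under the 5 CPM needed for the comparison with other genes. T cell markers would mark the other cells known for Kv1.3. Of these 7, 4 had no UMI in the microglia-like cells of either library (Cd3e, Cd3g, Trbc2 and Cd2). The 7 together summed to 0.807 CPM in vehicle and 0.784 in corticosterone, most of it Lck (0.776 and 0.588 CPM). Cd3d had 1 UMI in vehicle and 13 in corticosterone, and Trac 0 and 1. The part of T cells in the Kcna3 difference was not tested.

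**Figure D1:**
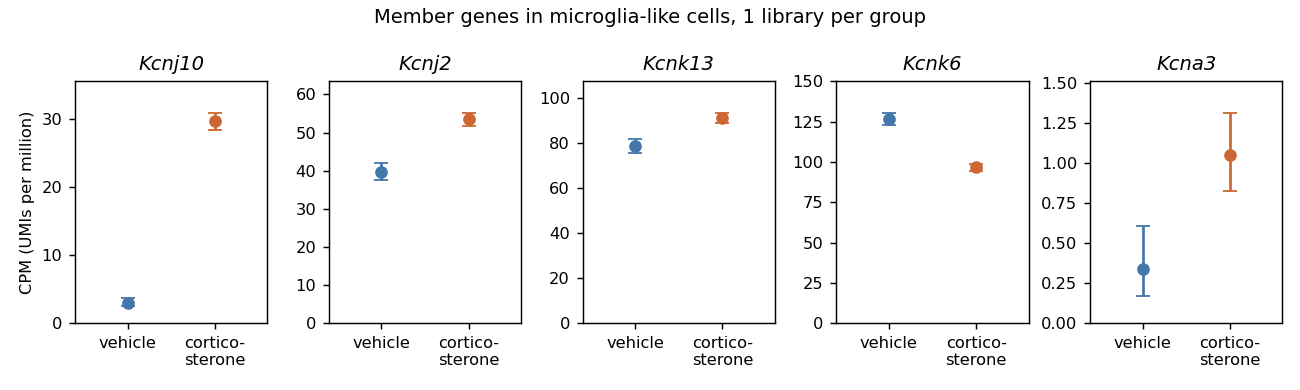
Level of each potassium channel gene in microglia-like cells of the vehicle and corticosterone libraries, in CPM, each panel on its own axis from 0. Points are 1 library each and bars are exact 95% counting intervals. Kcnj10 stood at 3.07 and 29.7 CPM, while Kcnk6 was the 1 gene lower in corticosterone, at 127 and 96.8 CPM.

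A difference was counted as large where the log2 ratio reached 1 in size, that is, 2-fold. Of the 5 genes, 4 had a mean of at least 5 CPM, and 1 of these 4, Kcnj10, was past that fold. The background was 2.24% of the 9677 genes higher in corticosterone by that much (217 genes) and 2.05% lower (198 genes). Since Kcnj10 was chosen for its ratio, nothing is read from this count.

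**Figure D2:**
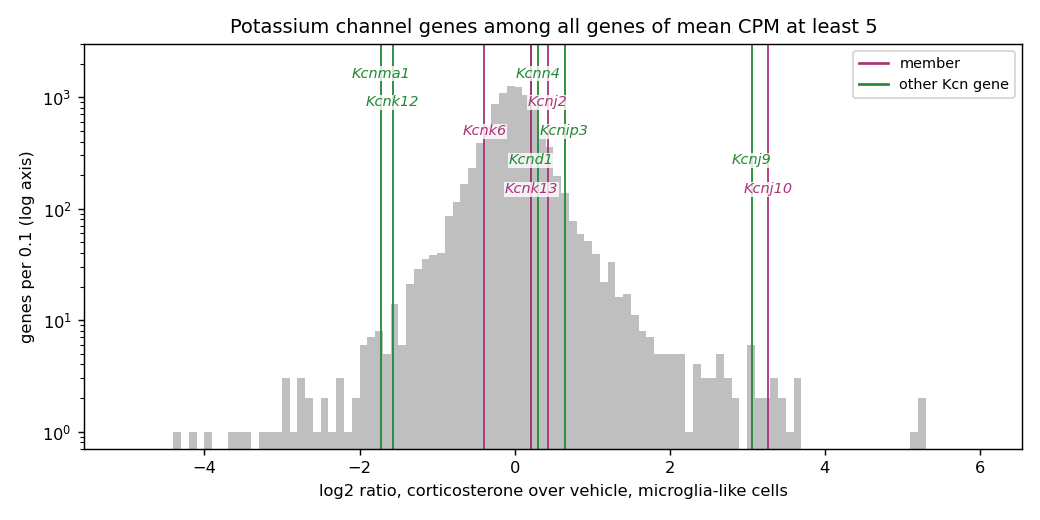
Distribution of the log2 ratio, corticosterone over vehicle, over the 9677 genes of mean CPM at least 5 in microglia-like cells, in bins of 0.1 with a logarithmic count axis. Vertical lines mark potassium channel genes: Kcnj10 (3.27) and Kcnj9 (3.06) lie in the upper tail, Kcnma1 (-1.72) and Kcnk12 (-1.57) in the lower, and the other lines between -0.39 and 0.64.

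Most cells showed no UMI of these genes, at the depth of single cells given above. To set aside the difference in depth, each microglia-like cell was thinned to 1000 UMIs, which left out 646 vehicle and 107 corticosterone cells that were shallower. Of the remaining 7321 vehicle cells, 0.205% (0.115 to 0.338) had a Kcnj10 UMI, against 3.06% (2.80 to 3.35) of 15177 corticosterone cells. Before thinning the shares were 1.17% and 11.6%. For Kcnj2 the thinned share was 3.78% and 5.27%, for Kcnk13 7.43% and 8.86%, for Kcnk6 11.4% and 8.97%, and for Kcna3 0.0410% and 0.0922%. The order of the libraries was the same as in the CPM for all 5 genes, although the Kcna3 shares rest on 3 and 14 cells and their intervals overlap.

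Kcnj10 UMIs were spread over many cells and not concentrated in a few. In the corticosterone library 1770 microglia-like cells held a Kcnj10 UMI, 83.6% of them exactly 1 and the highest 7. In the vehicle library 93 cells did, 87 of them with 1 UMI and 6 with 2. The thinned cells rarely held several of the 5 genes at once: 79.0% of vehicle and 76.0% of corticosterone cells held none, and 1.79% and 2.17% held 2. No thinned cell held more than 3.

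The Kcnj10 difference was also present between cells of like depth. Over 6 ranges of UMIs per cell, from under 2000 to 7000 and above, the log2 ratio ran from 2.77 to 4.45 and every interval lay above 0. Kcnj2 ran from 0.27 to 0.54 and Kcnk13 from 0.03 to 0.38, each with an interval that reached below 0 only in the cells under 2000 UMIs. Kcnk6 ran from -0.53 to -0.32, with an interval that crossed 0 in the same shallow cells. In cells from 2000 UMIs upward, the direction of these 4 genes was therefore the same at every depth.

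**Figure D3:**
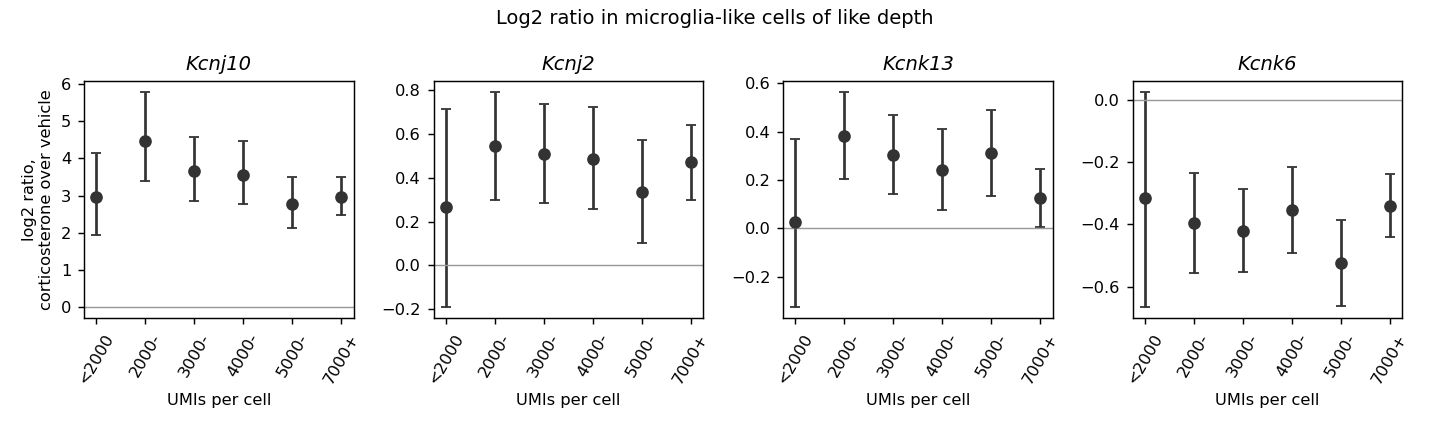
Log2 ratio, corticosterone over vehicle, of Kcnj10, Kcnj2, Kcnk13 and Kcnk6 in microglia-like cells grouped by UMIs per cell, each panel on its own axis with a line at 0. Bars are 95% counting intervals. Kcnj10 stayed between 2.77 and 4.45 in the 6 depth ranges, and Kcnk6 was below 0 in all of them.

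Microglia-like cells were next divided into sub-clusters after centring and scaling each gene within its library, so that the sub-clusters mixed both libraries, and 4 of them held at least 100 cells of each. Sub-cluster 0 was led by immediate-early and cytokine genes (Rcan1, Nr4a1, Ccl2, Il1b, Tnf), 1 by Klf4 and noncoding transcripts, 2 by interferon-induced genes (Ifit3, Rsad2, Iigp1) and 3 by neutrophil granule genes (Ngp, Camp, Ltf, S100a9). In sub-cluster 0, with 4255 vehicle and 8221 corticosterone cells, Kcnj10 was at 3.33 CPM (2.62 to 4.17) and 29.6 CPM (28.0 to 31.3). In sub-cluster 1, with 3238 and 6109 cells, it was at 2.71 CPM (1.68 to 4.14) and 31.2 CPM (28.9 to 33.6). The log2 ratios of these 2 large sub-clusters, 3.15 (2.82 to 3.51) and 3.53 (2.90 to 4.23), had overlapping intervals.

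In the interferon-led sub-cluster 2, no Kcnj10 UMI was found in 129 vehicle cells (0 to 6.27 CPM), against 24.5 CPM (19.7 to 30.1) in 651 corticosterone cells. In sub-cluster 3, Kcnj10 was at 2.55 CPM (0.309 to 9.23) in the vehicle library against 21.9 CPM (13.8 to 33.2) in the corticosterone one. Kcnj2 was higher in corticosterone in sub-clusters 0 and 1, with log2 ratios of 0.48 and 0.45, and the intervals of sub-clusters 2 and 3 included 0. Kcnk13 had log2 ratios of 0.24 and 0.21 in sub-clusters 0 and 1 and of -0.11 (-0.58 to 0.38) and -0.27 (-0.78 to 0.24) in sub-clusters 2 and 3, so its direction was not the same in all of them. Kcnk6 was lower in sub-clusters 0 (-0.41) and 1 (-0.42), while in the interferon-led cells its 110 CPM (85.2 to 141) and 108 CPM (97.2 to 119) could not be told apart.

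Outside the microglia-like class, levels of the 5 genes were read beside those of Sall1, P2ry12, Tmem119 and Siglech, which other blood and border cells should lack. These microglial genes stood at a median of 0.82 of their microglia-like level in vehicle macrophage-like cells and 0.65 in corticosterone ones, 0.56 and 0.36 in neutrophil-like cells, and 0.77 and 0.28 in monocyte-like cells. UMIs of microglial RNA were thus present in every class, whatever their source, and a level at or below these fractions is not read as expression by that class.

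From summed UMIs, Kcnj10 was higher in corticosterone in every class compared, with the interval of the ratio above 0 in 4 classes beside the microglia-like one. In these 4 it was past 2-fold, as were 2.95% of genes in macrophage-like cells, 4.56% in unnamed cluster 4, 2.58% in neutrophil-like cells and 6.24% in unnamed cluster 8; the other direction held 1.91%, 3.97%, 7.65% and 6.45%. In border-associated macrophage-like cells it was at 2.97 CPM (2.03 to 4.19) in the vehicle library against 20.2 CPM (17.0 to 23.8) in the corticosterone one, for a log2 ratio of 2.77. In the corticosterone library this was 0.680 of the microglia-like level, close to the 0.65 of the microglial genes. The same fraction was 0.532 in unnamed cluster 8, beside 0.656 for the microglial genes, and 0.372 in erythroid-like cells, beside 0.835. By the rule above, the levels of unnamed cluster 8 and erythroid-like cells are not read as expression by those classes. The fraction was 0.764 in unnamed cluster 4, beside 0.731, and 0.310 in monocyte-like cells, beside 0.283. In both, and in macrophage-like cells, it was slightly above that of the microglial genes. The part of microglial RNA in these levels was not tested. In neutrophil-like cells Kcnj10 was at 2.62 and 14.0 CPM, the latter 0.473 of the microglia-like level, beside 0.36 for the microglial genes. This class joined clusters 6 and 7, which were unlike. Cluster 6 was at 3.04 CPM (0.829 to 7.79) and 21.2 CPM (14.0 to 30.8). Cluster 7 was at 2.05 CPM (0.249 to 7.42) and 5.57 CPM (2.05 to 12.1), with overlapping intervals. Averaged over cells in place of summed, the corticosterone value of the whole neutrophil-like class was 8.08 CPM beside 30.6 in microglia-like cells, and that of unnamed cluster 4 was 14.2 CPM. Monocyte-like cells, with 2 and 5 Kcnj10 UMIs, were at 5.36 and 4.97 CPM by that average, so they lost the direction. In the vehicle library no class of 50 or more cells had a Kcnj10 interval apart from that of microglia-like cells. In the corticosterone library the order was microglia-like, unnamed cluster 4 (22.7 CPM), macrophage-like, unnamed cluster 8 (15.8), neutrophil-like, erythroid-like (11.1) and monocyte-like (9.20), and neighbours in this order overlapped. In thinned cells, 0 of 330 vehicle neutrophil-like cells held a Kcnj10 UMI, which by a floor of 3 cells allows a share of up to 0.909% (exact interval 0 to 1.11%), against 0.771% (0.159 to 2.24) of 389 in corticosterone. The endothelial-like cluster, with 39 and 25 cells, was below the 50 cells set for a class; its 7 and 6 Kcnj10 UMIs came to 21.6 CPM (8.69 to 44.5) and 53.7 CPM (19.7 to 117).

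Outside microglia-like cells, Kcnj2 was higher in corticosterone in unnamed cluster 4, at 32.2 and 50.9 CPM, with a log2 ratio of 0.66 (0.13 to 1.21), and intervals of the ratio included 0 in the other classes. In macrophage-like cells it was at 33.2 CPM (29.9 to 36.8) in the vehicle library against 34.7 CPM (30.4 to 39.4) in the corticosterone one, for a log2 ratio of 0.06 (-0.18 to 0.30). In neutrophil-like cells it was at 33.6 and 33.2 CPM, for a log2 ratio of -0.02 (-0.49 to 0.45). In the corticosterone library both classes lay below the microglia-like 53.5 CPM with no overlap of intervals, and in the vehicle library 1 of these 2 did so, the macrophage-like class. Macrophage-like cells held 0.837 of the microglia-like Kcnj2 level in vehicle and 0.649 in corticosterone, beside 0.823 and 0.652 for the microglial genes. By the rule above, that corticosterone level is not read as expression by the class. Neutrophil-like cells held 0.847 and 0.620, beside 0.565 and 0.356. The part of microglial RNA in these ratios was not tested. The microglia-like class and cluster 4 were the highest of the corticosterone library, and their intervals overlapped.

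Kcnk13 was highest in unnamed cluster 4, at 156 CPM (135 to 180) in the vehicle library against 214 CPM (196 to 233) in the corticosterone one. These 618 and 1155 cells were shallow, with medians of 1090.5 and 1272 UMIs, and were led by Kcnq1ot1, Lrmda, Fhit and Immp2l. Fhit and Immp2l are among the longest genes of the genome, and Kcnk13 is itself the longest of the 5 channel genes. Whether intronic reads were counted is not given in the sources used here, and their part in this level was not tested. Macrophage-like cells, at 72.5 and 78.4 CPM, had an interval that overlapped that of microglia-like cells in vehicle (67.5 to 77.7 against 75.5 to 81.6) and not in corticosterone (71.9 to 85.3 against 88.9 to 93.3). Neutrophil-like cells were lowest in vehicle, at 45.0 CPM (36.7 to 54.6), and monocyte-like cells in corticosterone, at 31.3 CPM (18.2 to 50.1), which overlapped the neutrophil-like 41.3 CPM (33.5 to 50.3). Averaged over cells, the neutrophil-like values were 25.2 and 25.0 CPM. Monocyte-like cells went the other way from microglia-like ones, from 66.3 CPM (24 UMIs in 54 cells) in vehicle to those 31.3 CPM (17 UMIs in 66 cells), with a log2 ratio of -1.09 (-2.07 to -0.13). In that small class 22.3% of genes were 2-fold lower and 11.2% 2-fold higher. Kcnk13 there was 0.845 of its microglia-like level in vehicle and 0.343 in corticosterone, beside 0.775 and 0.283 for the microglial genes. The part of microglial RNA in this ratio was not tested. Erythroid-like cells were at 50.7 and 88.4 CPM (25 and 32 UMIs), with a log2 ratio of 0.80 (0.00 to 1.62). This was 0.646 of the microglia-like level in vehicle and 0.971 in corticosterone, beside 0.790 and 0.835 for the microglial genes. By the rule above, that vehicle level is not read as expression by the class.

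From summed UMIs, Kcnk6 was lower in the corticosterone library in every class of 50 or more cells. Vehicle monocyte-like cells held 0.480 of the microglia-like level, beside 0.775 for the microglial genes. The fractions were 0.784 beside 0.790 in vehicle erythroid-like cells and 0.615 beside 0.656 in corticosterone unnamed cluster 8. By the rule above, these levels are not read as expression by those classes. Elsewhere the fraction was above that of the microglial genes. In macrophage-like cells Kcnk6 was at 106 CPM (99.5 to 112) and 75.1 CPM (68.7 to 81.8), for a log2 ratio of -0.49 (-0.64 to -0.34). In neutrophil-like cells it was at 75.6 CPM (64.7 to 87.7) and 35.7 CPM (28.5 to 44.2), for a log2 ratio of -1.08 (-1.47 to -0.70). Averaged over cells, the values were 65.9 and 18.1 CPM. That was the 1 class of 50 or more cells with Kcnk6 past the 2-fold mark, and 7.65% of the 9539 genes compared in neutrophil-like cells were lower by that much. The level of the microglial genes in neutrophil-like cells was also lower in corticosterone, at 0.36 against 0.56 of the microglia-like level, and its part in this ratio was not tested. Intervals included 0 in erythroid-like (-0.26) and monocyte-like cells (-0.24), and the average over cells turned the direction in monocyte-like cells (27.1 and 40.1 CPM). Microglia-like cells had the highest Kcnk6 level in both libraries; clusters 4 and 8 (both 107 CPM) and erythroid-like cells (99.3 CPM) overlapped them in vehicle, and erythroid-like cells (82.9 CPM) in corticosterone.

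**Figure D4:**
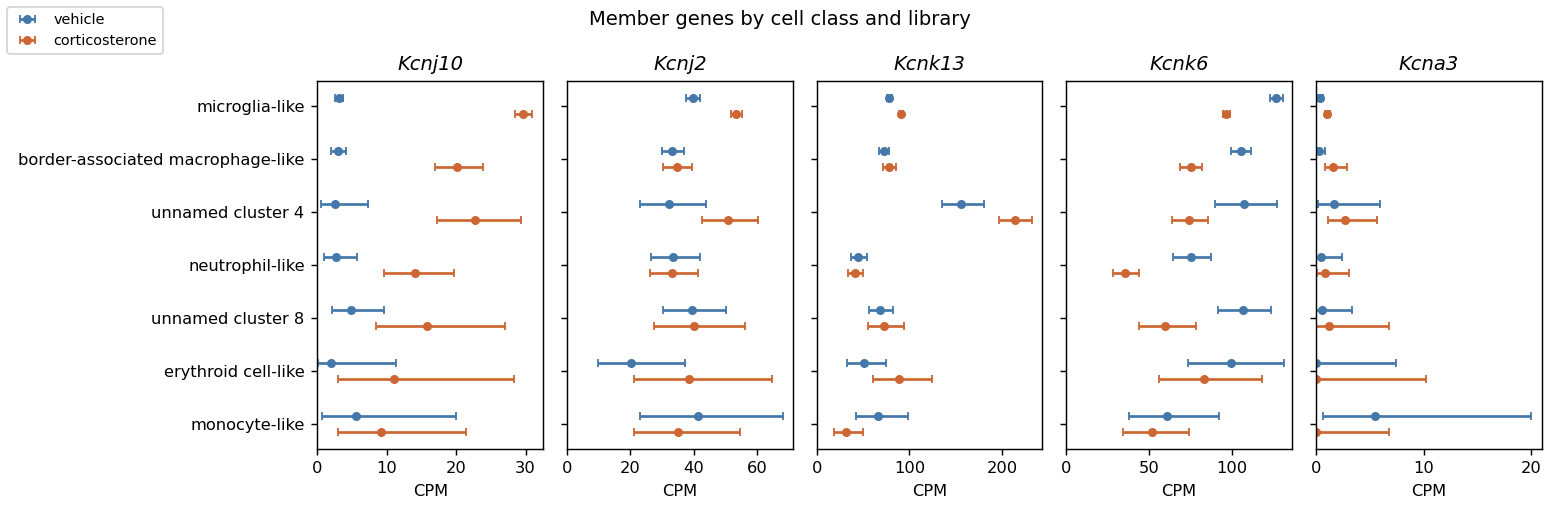
Level of each potassium channel gene by cell class in the vehicle (blue) and corticosterone (orange) libraries, in CPM on axes that start at 0; points are 1 library each and bars are exact 95% counting intervals. Kcnj10 was higher and Kcnk6 lower in corticosterone in each class drawn (in monocyte-like cells not when averaged over cells), while Kcnj2 overlapped between libraries in macrophage-like and neutrophil-like cells.

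Other cell types known for Kcnj10 were looked for inside the microglia-like class. Of 9 astrocyte markers, all had a UMI in at least 1 library, and their summed level was 208 CPM in vehicle and 93.3 CPM in corticosterone. Nearly all of that was Slc1a3, a glutamate transporter (205 and 90.9 CPM), while the water channel gene Aqp4 stood at 0.0621 and 0.0140 CPM and Gfap at 0 and 0.0840 CPM. Endothelial markers summed to 40.5 and 6.09 CPM, of which Pecam1 made 35.7 and 3.85 CPM and Cldn5 0.279 and 0.0420 CPM. Oligodendrocyte markers summed to 61.4 and 69.8 CPM, a log2 ratio of 0.18 (0.11 to 0.26), most of it Mag (33.2 and 38.8 CPM) and Mbp (25.2 and 29.2 CPM), while Opalin had no UMI. Those of oligodendrocyte precursors summed to 0.403 and 0.714 CPM, with Pdgfra and Olig2 at 0. The part of these cell types in the Kcnj10 difference was not tested. Kcnj16, whose Kir5.1 subunit pairs with Kir4.1 in astrocytes, had 73 UMIs in vehicle and 27 in corticosterone, for a log2 ratio of -2.58 (-3.28 to -1.93) at under 3 CPM; it was singled out after its values were seen.

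The other genes of the family give the members' surroundings. The feature table holds 99 symbols that start with Kcn, the noncoding Kcnq1ot1 among them; 56 had a UMI in microglia-like cells of both libraries and 29 in neither. Beside the 4 members, 6 reached a mean of 5 CPM, and of these 1 was higher and 2 were lower by 2-fold or more, beside 2.24% and 2.05% of all genes. Their median log2 ratio was 0.26, against -0.01 over all genes. Kcnj9, a Kir3.3 subunit of G protein-gated inward rectifiers best known from neurons, was at 1.92 CPM (1.48 to 2.47) in the vehicle library against 16.0 CPM (15.1 to 17.0) in the corticosterone one, for a log2 ratio of 3.06 (2.69 to 3.45). It was the member of the family most like Kcnj10 in its difference.

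Kcnk12 encodes THIK-2, the closest relative of THIK-1, and went the other way from Kcnk13. It was at 40.1 CPM (37.9 to 42.3) in the vehicle library against 13.5 CPM (12.7 to 14.4) in the corticosterone one, for a log2 ratio of -1.57 (-1.69 to -1.45). Kcnma1, the pore of the large-conductance calcium-activated channel, was at 15.6 and 4.76 CPM, for a log2 ratio of -1.72 (-1.92 to -1.52). Both were lower in corticosterone with no overlap of intervals. Kcnip3, a calcium-binding partner of Kv4 channels, was at 20.6 and 32.2 CPM (log2 ratio 0.64), and Kcnd1, a Kv4 channel itself, at 27.3 and 31.5 CPM (0.21). Kcnn4, the intermediate-conductance calcium-activated channel of immune cells, was at 4.90 and 6.06 CPM (0.31, 0.04 to 0.58).

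The channels' partners were read as lists, and counts past 2-fold stand beside the 2.24% of all genes that were higher and the 2.05% that were lower. Of 17 receptors and G proteins that gate THIK-1 or supply its purine signals, 16 reached 5 CPM, none was 2-fold apart in either direction, and their median log2 ratio was -0.05. P2ry12, the ADP receptor of resting microglia, was lowest, at 6120 and 3521 CPM (log2 ratio -0.80), and the ATP-gated channel gene P2rx4 highest, at 55.3 and 87.0 CPM (0.65). Of 12 genes of the NLRP3 pathway and potassium efflux, 2 were 2-fold higher in corticosterone and none lower, with a median of -0.07. Il1b, the interleukin-1 beta gene, was at 27.9 and 290 CPM (log2 ratio 3.38), and Panx1, a large-pore channel, at 6.77 and 13.7 CPM (1.02). Nlrp3 itself was the lowest of that list, at 147 and 119 CPM (-0.30). The list's genes thus did not differ in one direction.

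Among 17 genes of the sodium pump, which restores the potassium gradient, and of cation chloride cotransport, 11 reached 5 CPM and 2 were 2-fold higher, with a median log2 ratio of -0.21. Fxyd5, a regulatory subunit of the pump, was at 4.03 and 20.8 CPM (2.36), the highest of the list. Slc12a2, the sodium, potassium and chloride cotransporter NKCC1, was lowest, at 165 and 95.4 CPM (-0.79). Of 27 other ion channels of microglia 23 reached 5 CPM and 2 were 2-fold higher, Trpv4 (3.01 and 12.9 CPM, 2.10) and the lysosomal channel Tpcn2 (9.87 and 21.1 CPM, 1.10), with a median of 0.12. Trpm4 was lowest, at 29.3 and 20.7 CPM (-0.50). Of 12 regulators of Kir channels, 11 reached 5 CPM and none was 2-fold apart; the lipid kinase gene Pip4k2a was lowest (-0.76), with a median of -0.17. The last list held 23 other potassium channel and related genes of macrophages and lymphocytes. Of these, 6 reached 5 CPM, 2 were 2-fold lower and none higher, with a median of -0.26. The 2 were Kcnk12 and Kcnma1, already counted above among the Kcn genes. Kcnip3 was highest and Kcnma1 lowest.

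Kcnj10 and Kcnj9, the potassium channel genes with the highest ratios among those of at least 5 CPM, are neighbours on chromosome 1. An annotated antisense gene, Gm36937, overlaps Kcnj9 on the other strand. Gm36937 is also a separate feature. As for Kcna3, whether the counting used strand is not given, so how reads from this overlap were assigned is not known. Kcnj10 lies at chr1:172341210-172374085 on the plus strand and Kcnj9 at chr1:172320501-172329318 on the minus strand, so that they are read away from each other from starts 11892 bases apart. In the corticosterone library 148 microglia-like cells held UMIs of both, 8.36% of the 1770 cells with Kcnj10 and 14.8% of the 1000 with Kcnj9, while 6.54% of all microglia-like cells held Kcnj9. Cells with either gene were deeper than the class median of 3999 UMIs, at medians of 4669.5 and 4678.5, and the part of depth in this co-occurrence was not tested. In the vehicle library 1 cell held both.

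Because the 2 genes share a region, all genes separated from Kcnj10 by at most 1 Mb were listed, a comparison chosen after the values of the pair were seen. Of 29 neighbours with a mean of 5 CPM or more, 7 were 2-fold higher in corticosterone (24.1%, beside 2.24% of all genes) and 1 was 2-fold lower. Without Kcnj9, whose ratio prompted the comparison, 6 of 28 were higher (21.4%). Beside Kcnj9 the 7 were the SLAM family immune-receptor genes Slamf8 (1.47), Ly9 (1.27), Slamf6 (1.12) and Slamf9 (1.04), the actin-binding Tagln2 (1.25) and the membrane protein gene Igsf8 (1.03), each value a log2 ratio. Slamf1, of the same SLAM family, was the lower one (-1.92), at 11.4 and 3.01 CPM. The nearest neighbour, Pigm, starts 2461 bases beyond the end of Kcnj10 and was at 18.1 and 18.3 CPM (0.02), so not every gene of the region differed. Around the other 4 members, 0 of 66 neighbours were 2-fold apart in either direction. Of these 66, 41 lay around Kcnk6, 12 around Kcna3, 11 around Kcnk13 and 2 around Kcnj2.

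**Figure D5:**
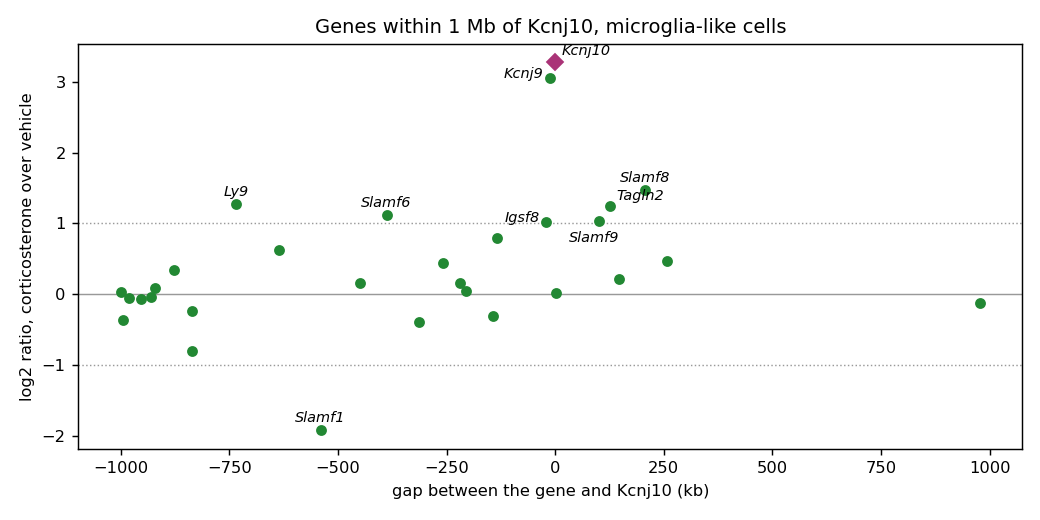
Log2 ratio, corticosterone over vehicle, in microglia-like cells of the 29 genes of mean CPM at least 5 that lie within 1 Mb of Kcnj10 (diamond), by the gap between the 2 annotated genes in kilobases. Dotted lines mark a 2-fold difference: 7 neighbours lie above the upper line, Kcnj9 the highest at 3.06, and Slamf1 below the lower one at -1.92.

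The sequences upstream of the starts of Kcnj10 and Kcnj9 are shown because these 2 genes were higher together and lie side by side. Promoters came from RefSeq (build GRCm38.p6), where 4 of the 5 members had an entry. The letters AGAACA on either strand (TGTTCT on the other), 1 arm of the palindrome that the glucocorticoid receptor binds, are in capitals.
Kcnj10, chr1:172340960-172341209, plus strand: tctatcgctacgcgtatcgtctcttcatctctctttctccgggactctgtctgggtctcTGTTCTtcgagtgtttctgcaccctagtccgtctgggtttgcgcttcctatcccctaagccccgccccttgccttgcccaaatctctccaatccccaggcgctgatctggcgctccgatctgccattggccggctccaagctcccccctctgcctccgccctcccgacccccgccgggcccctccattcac
Kcnj9, chr1:172329323-172329572, minus strand: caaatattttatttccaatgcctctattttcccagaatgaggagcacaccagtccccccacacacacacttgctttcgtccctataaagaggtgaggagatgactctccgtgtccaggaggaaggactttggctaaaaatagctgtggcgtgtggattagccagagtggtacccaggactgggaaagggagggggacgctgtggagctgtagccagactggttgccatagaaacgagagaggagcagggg

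Windows of 300 bases, 250 before the start and 50 after it, were searched on both strands for this arm, for the whole palindrome (AGAACA, any 3 bases, TGTTCT, which contains the arm at each end) and for an interferon response core (GAAA, any 2 bases, GAAA). Kcnj10 held 1 arm, found in 19.0% of 32851 promoters of that length. None of the promoters of Kcnj10, Kcnj2, Kcnk13, Kcna3 and Kcnj9 held the palindrome, present in 0.00913% of all promoters, or the interferon core, present in 3.44%. These are matches of letters in a short window and say nothing of whether a factor binds.

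Genes with the most similar pattern were sought over the 10 sums of cells, per library and cluster or class, of at least 100 cells, as Pearson correlations of log2(CPM + 1) among 6473 genes of at least 20 CPM. These sums share the same 2 libraries, their depth and their free RNA, so the correlations are descriptions. Kcnj10 was closest to Man2b1 (r = 0.958), a lysosomal mannosidase, then to Ogfr (0.951) and Slc11a1 (0.947), the phagosomal metal transporter. Kcnj2 was closest to Map2k1 (0.949), Plk3 (0.934) and Zfp131 (0.928). Kcnk13 was closest to Itga9 (0.990), Tbc1d22a (0.988) and Kcnip3 (0.987), and Kcnk6 to Ly86 (0.993), P4ha1 (0.986) and Fscn1 (0.985). Kcna3, at a few UMIs per sum, was closest to Pik3r6 (0.935), Kif1b (0.928) and Nasp (0.926). Between members the correlation was 0.67 for Kcnj10 with Kcnj2 and -0.47 for Kcnj10 with Kcnk6, so the 5 genes did not share 1 pattern.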

How the data were processed

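Each library was deposited as a matrix of raw counts (UMIs per gene and cell barcode). Per the submitters' processing notes, bcl2fastq 2.19 and GRCm38 were used; the aligner, counter, annotation and cell calling are not given in the sources used here. Per the labels' protocols, libraries were made with the Singleron GEXSCOPE kit. The deposited file names carry other words (wildtype, depression) than the labels, and groups follow the labels. The members and lists were chosen with earlier results of these data known.

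Cells with at least 500 UMIs, 300 genes and at most 20% mitochondrial UMIs were kept (55 and 230 barcodes removed). Both libraries were clustered together (scanpy 1.11.5, 2000 variable genes without Kcn genes, 30 components, 15 neighbours, leidenalg 0.10.2 at resolution 0.5), and clusters were named from fixed markers. Scrublet marked 0 barcodes in either library and was taken not to have worked, so doublets were not removed. UMIs were summed per class and library; levels have exact Poisson intervals, ratios and shares Clopper-Pearson intervals, at 95%. No test between groups was run. Named genes were the 5 members, other Kcn genes of mean CPM at least 5, the 3 closest patterns per member, each list's highest and lowest gene, and markers touching a member; Panx1, Tpcn2, Kcnj16 and the neighbours of Kcnj10 were named after their values were seen. Some genes and 1 sequence under these rules are not reported here. Intervals were tested on simulated data. Alternatives used edgeR 4.0.16 and DESeq2 1.42.0 scaling, other cell filters, classes, depths and levels.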

Additional observations from a re-analysis of the deposited data

How the results depend on the processing

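The log2 ratio of each member in microglia-like cells was recomputed under 13 alternatives, 3 of them chosen after seeing the data (unnamed cluster 4 added, clusters 0, 1 and 2 only, shared barcodes left out). No member reversed its direction, and of the members at 5 CPM or more 1, Kcnj10, was past 2-fold in all of them, as was Kcna3 at its few UMIs. Ranges were 3.13 to 3.74 for Kcnj10, 0.28 to 0.54 for Kcnj2, 0.12 to 0.32 for Kcnk13, -0.42 to -0.28 for Kcnk6 and 1.45 to 2.70 for Kcna3. Scaling by edgeR's TMM gave 0.30 for Kcnk13 and -0.30 for Kcnk6, and DESeq2's size factors, which shift the median of all genes by 0.11, gave 0.54 for Kcnj2, 0.32 for Kcnk13 and -0.28 for Kcnk6. With Leiden resolution 1.0, where a vehicle cluster became unnamed and 3385 vehicle cells were left, Kcnj2 was 0.28, Kcnk13 0.12 and Kcnk6 -0.33. In cells of 2000 to 5000 UMIs, Kcnj10 was 3.74 and Kcnk13 0.28. A rule per cell in place of clusters gave 2.70 for Kcna3. Among other Kcn genes, 0 were 2-fold higher and 1 lower at a mean of at least 20 CPM, against 1 and 2 at 5 CPM, and 4 and 20 with no minimum. In 7 sub-clusters at resolution 0.8, Kcnj10 was higher in corticosterone in all, and Kcnj2, Kcnk13 and Kcnk6 kept their direction in 85.7%. No paired analysis was possible because each group has 1 library and no test was run. The intervals cover counting error only; the spread between animals was not measured, and Kcna3 is limited by its 11 vehicle UMIs.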

Other observations

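The relatives of the 5 channel genes were also read outside microglia-like cells. Kcnj9 in macrophage-like cells was at 1.95 CPM under vehicle against 10.6 CPM under corticosterone, a log2 ratio of 2.44 (1.73 to 3.22), and at 1.75 and 5.96 CPM in neutrophil-like cells, 1.77 (0.10 to 3.83). Kcnk12 was at 32.7 and 10.3 CPM in macrophage-like cells, a log2 ratio of -1.66 (-2.05 to -1.29), and at 20.1 and 6.81 CPM in neutrophil-like cells, -1.56 (-2.48 to -0.71). Both genes thus had the direction of the microglia-like class in these 2 classes, in which 2.95% and 2.58% of genes were 2-fold higher and 1.91% and 7.65% 2-fold lower. Unnamed clusters 4 and 8 had the same directions. Kcnj9 was at 2.48 and 28.6 CPM in cluster 4, a log2 ratio of 3.53 (1.92 to 5.84). In cluster 8 it was at 2.43 and 18.2 CPM, 2.91 (1.26 to 4.96). Microglia-like cells were at 16.0 CPM in corticosterone. Kcnk12 was at 53.7 and 15.7 CPM in cluster 4 (-1.78) and 24.9 and 2.43 CPM in cluster 8 (-3.36). There 4.56% and 6.24% of genes were 2-fold higher and 3.97% and 6.45% lower. Microglial marker genes were present in all these classes, and their part in these ratios was not tested.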
